A study of Mus musculus with 25 samples.

Results

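Lawsonibacter, Flavonifractor and Intestinimonas are 3 related genera of strictly anaerobic Firmicutes that live in the large intestine, and they were followed here through mouse feces as variants of the full-length 16S rRNA gene. The members are the amplicon sequence variants (ASVs, distinct amplicon sequences) whose genus field carries one of these names. They were chosen by genus name, with the shares of Lawsonibacter in the Sham and OVX libraries already known, so the OVX against Sham values of all 3 genera are given as a description, with no test. The rule found 43 of the 1555 ASVs in the table: 17 named Lawsonibacter, 16 named Flavonifractor and 10 named Intestinimonas. Together they held 4361 of 300831 counts, or 1.45%.

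All mice were C57BL/6, and 5 fecal libraries came from each of 5 groups. Sham and OVX were the plain groups; OVX+GEX added a treatment to OVX, OVX+PBS a vehicle, and OVX+FMT a transplant. OVX is the usual abbreviation of ovariectomy, a model of estrogen deficiency; PBS is a buffered saline and FMT stands for fecal microbiota transplantation. The labels do not spell out GEX, and the design text speaks only of a traditional medicine, so the name is left as written. The sources used here give no dose, route, age, transplant donor or cage, and the sex is not stated because the labels' sex field is at odds with the surgery. The labels call the libraries separate samples and do not say that they came from separate animals, so each p-value is set against library-to-library spread, which may be partly technical. Library totals ran from 8498 to 22404 counts with a median of 10123, and 5 libraries held over 15000 counts: 2 in Sham, 1 in OVX+PBS and 2 in OVX+FMT. No pair of libraries within a group was a duplicate, the smallest Bray-Curtis distance being 0.300.

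The 3 genera are known as formers of butyrate, the short-chain fatty acid that colon epithelium burns as fuel. Lawsonibacter asaccharolyticus makes butyrate but ferments hardly any sugar. Flavonifractor plautii makes butyrate and cleaves plant flavonoids such as quercetin, and Intestinimonas butyriciproducens is known for making butyrate from the amino acid lysine and from sugar-lysine adducts. These roles are background: a share of 16S counts does not measure butyrate, genes or cell numbers, and a share can rise because other bacteria fell.

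Each genus carried exactly 1 species name in the table: the names of the 3 species just described. Lawsonibacter and Intestinimonas had the order name Eubacteriales in place of a family, whereas Flavonifractor was placed in Oscillospiraceae. The names are those of relatives in a taxonomy database that is not given in the sources used here, and the table holds no sequence letters for the variants.

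Lawsonibacter was by far the largest of the 3, with 3926 counts. Its share averaged 1.31% ± 0.963 over the libraries (SD, n = 25), which put it at rank 13 of 110 genera by mean share. Flavonifractor held 320 counts (0.107% ± 0.0838 on average, rank 54) and Intestinimonas 115 counts (0.0377% ± 0.0366, rank 61). Lawsonibacter was seen in all 25 libraries and outnumbered each of the other genera in every one of them; Flavonifractor was seen in 22 libraries and Intestinimonas in 18. All 3 genera were present in 17 libraries. In OVX replicate 3 and OVX+GEX replicate 3 only Lawsonibacter was seen.

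In Sham, Lawsonibacter took 0.380%, 0.266%, 0.0633%, 0.620% and 0.336% of the counts in replicates 1 to 5. The OVX libraries held 0.489%, 1.82%, 0.533%, 1.48% and 1.24%. OVX replicates 1 and 3 thus lay below the highest Sham library, and the other 3 OVX libraries lay above all of Sham. In OVX+GEX the shares were 3.00%, 0.401%, 1.42%, 3.29% and 2.39%, with only replicate 2 inside the Sham range. OVX+PBS held 2.11%, 2.08%, 1.65%, 1.59% and 1.23%, all above the highest Sham library. OVX+FMT spread widely, with 0.326%, 1.69%, 1.15%, 0.211% and 3.10%; its replicates 1 and 4 lay within the Sham range. The lowest of the 25 values rested on 11 counts in Sham replicate 3 (95% Wilson interval 0.0354% to 0.113%) and the highest on 280 counts in OVX+GEX replicate 4 (2.94% to 3.70%). Such intervals cover counting error only.

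The group means of Lawsonibacter ran, from low to high, 0.333% ± 0.201 in Sham, 1.11% ± 0.586 in OVX, 1.29% ± 1.18 in OVX+FMT, 1.73% ± 0.368 in OVX+PBS and 2.10% ± 1.19 in OVX+GEX (SD, n = 5). Each pair of neighbours in this order had overlapping ranges. By mean share Lawsonibacter was genus 36 of the 96 seen in Sham, 15 of 84 in OVX, 14 of 89 in OVX+FMT, 10 of 77 in OVX+PBS and 10 of 83 in OVX+GEX. The OVX mean exceeded the Sham mean by 0.779 percentage points. In that comparison edgeR called 0 of 81 genera (0%, with 9 at an unadjusted p under 0.05), DESeq2 and limma called 1 each, and 1.23% of genera had groups that did not overlap; nothing is read from either, since these shares were known when the genera were chosen.

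**Figure D1:**
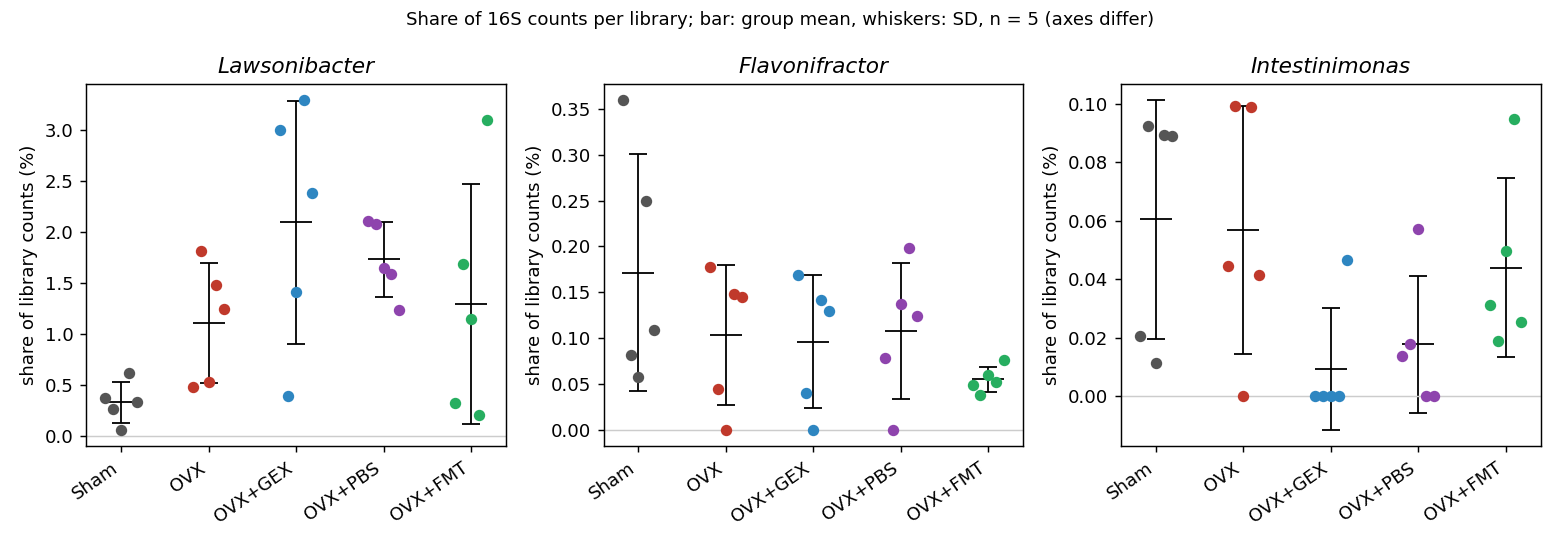
Share of library counts (percent, vertical axes, which differ between panels) of Lawsonibacter, Flavonifractor and Intestinimonas in the 5 libraries of each group; points are libraries, horizontal bars are group means and whiskers are SD (n = 5). The Lawsonibacter points of Sham all lie at or under 0.620%, below every OVX+PBS point, while OVX+FMT spreads from 0.211% to 3.10%.

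The other groups were next set against Sham, to ask whether Lawsonibacter stood above Sham in ovariectomized mice that had received GEX, PBS or a transplant. It rose in all 3 comparisons by edgeR's quasi-likelihood test, adjusted over 81 genera with a threshold of 0.05. The log2 fold change against Sham was 3.33 (SE 0.76, adjusted p = 0.0124) in OVX+GEX, 3.06 (SE 0.76, adjusted p = 0.0288) in OVX+PBS and 2.94 (SE 0.75, adjusted p = 0.0420) in OVX+FMT, each with 5 libraries a group. Lawsonibacter had the smallest p of all tested genera in each. The 3 comparisons share the Sham libraries with each other and with the comparison in view when the genera were chosen, so they are not independent of it.

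Few genera were called in these comparisons. For OVX+GEX against Sham edgeR called 4 of 81 genera (4.94%), all higher. For OVX+PBS and for OVX+FMT against Sham it called 1 of 81 (1.23%), which was Lawsonibacter. At an unadjusted edgeR p under 0.05 there were 9, 17 and 14 genera in OVX+GEX, OVX+PBS and OVX+FMT. The other calls in OVX+GEX, named after their values were seen, were Adlercreutzia, Ligilactobacillus and Shigella (adjusted p = 0.0390 by edgeR for each). Groups that did not overlap were found for 4.94% of genera in OVX+GEX against Sham, 8.64% in OVX+PBS against Sham and 6.17% in OVX+FMT against Sham. Lawsonibacter was among them only in OVX+PBS, where it was the 1 genus lying wholly above Sham.

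The size of the rise depends on the scaling. As plain ratios of mean shares, Lawsonibacter was 6.30-fold higher than Sham in OVX+GEX, 5.21-fold in OVX+PBS and 3.89-fold in OVX+FMT, log2 ratios of 2.66, 2.38 and 1.96. The fitted values above used TMM scaling, which centres on the bulk of genera. With plain totals in its place the median log2 fold change over the 81 genera moved from -0.02 to -0.61 in OVX+GEX, from -0.48 to -1.08 in OVX+PBS and from 0.13 to -0.42 in OVX+FMT. Lawsonibacter then had log2 fold changes of 2.65, 2.38 and 1.95 and edgeR adjusted p-values of 0.0594, 0.0761 and 0.135, so the calls were lost while the direction held. An exact two-sided permutation test of the shares gave p = 0.0159 for OVX+GEX, 0.00794 for OVX+PBS, which is the smallest that 5 against 5 libraries allow, and 0.119 for OVX+FMT. Adjusted over 81 genera these became 0.214, 0.0857 and 0.321, past the threshold in none. Before adjustment 15, 24 and 22 of the 81 genera had an exact permutation p under 0.05, and in OVX+FMT Lawsonibacter was not among them. With 5 against 5 libraries even the smallest possible p is too large for a single genus to pass this adjustment by itself. The adjusted permutation values therefore cannot decide whether the calls hold.

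Single libraries also decided the calls. Without Sham replicate 2 the edgeR adjusted p for Lawsonibacter was 0.0868 in OVX+GEX, 0.109 in OVX+PBS and 0.138 in OVX+FMT, and without Sham replicate 5 it was 0.0642, 0.106 and 0.149. Leaving out Sham replicate 1, 3 or 4 ended the call in OVX+PBS (0.0652, 0.114 and 0.0515) and in OVX+FMT (0.103, 0.0623 and 0.0912) but not in OVX+GEX. The call in OVX+PBS also ended without OVX+PBS replicate 2 (0.0502), and that in OVX+FMT without OVX+FMT replicate 2 (0.0610). Without OVX+FMT replicate 5, the library with the most Lawsonibacter in its group, the log2 fold change for OVX+FMT fell to 1.76 (edgeR adjusted p = 0.195). Without OVX+FMT replicate 4, the lowest library of that group, it was 2.96 (edgeR adjusted p = 0.00560). Among libraries under 15000 counts the log2 fold changes were 3.30 in OVX+GEX, 3.04 in OVX+PBS and 1.96 in OVX+FMT (edgeR adjusted p = 0.0397, 0.0912 and 0.331).

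**Figure D2:**
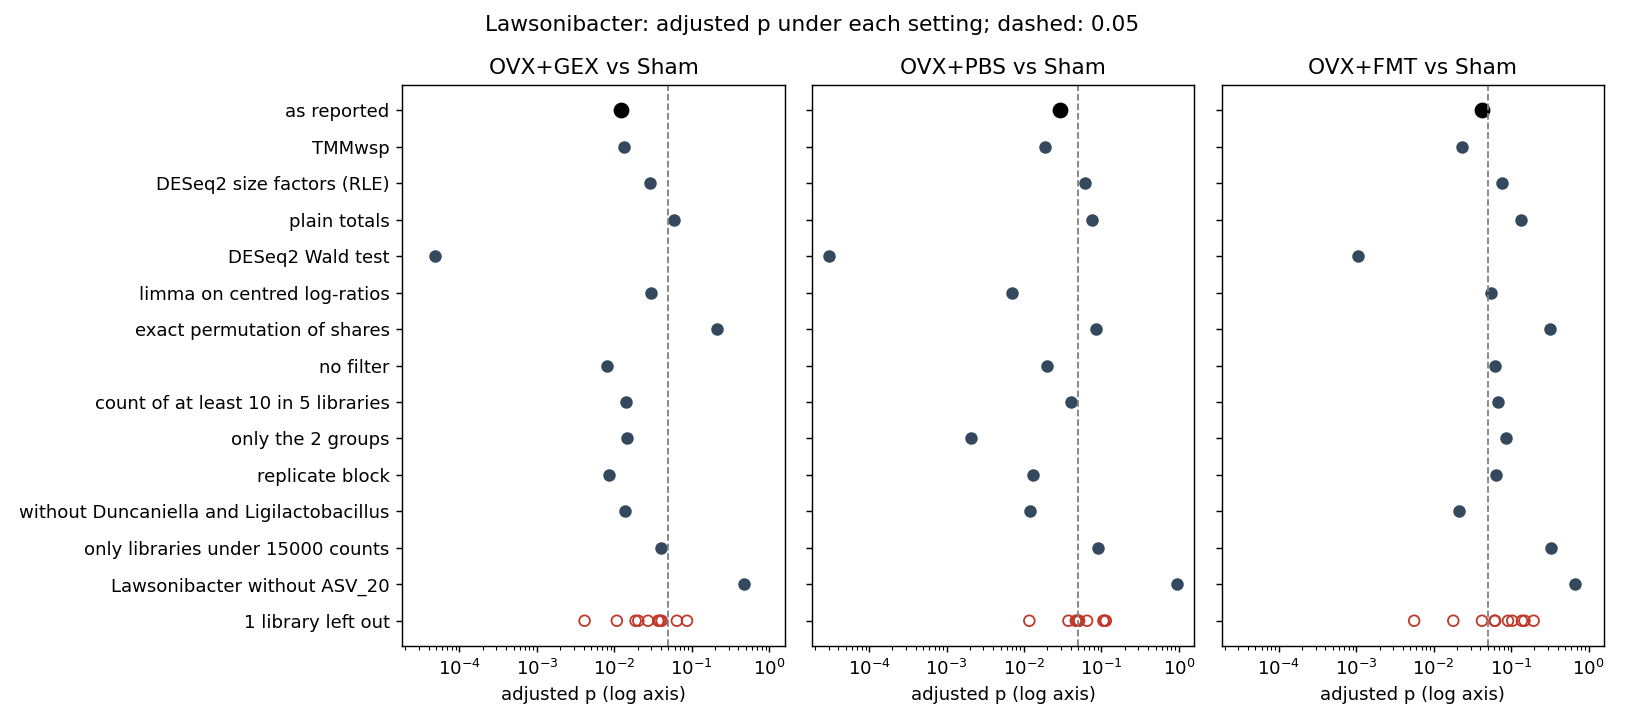
Adjusted p of Lawsonibacter (horizontal log axis) against Sham for OVX+GEX, OVX+PBS and OVX+FMT, as reported (large black point), under each alternative setting (dark points) and with 1 library left out at a time (open red circles); the dashed line is the threshold of 0.05. The OVX+GEX points lie left of the line for most settings, and the OVX+FMT points right of it for most.

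Lawsonibacter was then compared among the ovariectomized groups. OVX+GEX against OVX asks whether the treatment changed the genus. The log2 fold change was 1.14 (SE 0.71), with an edgeR adjusted p of 0.591, and the ratio of mean shares was 1.89 (exact permutation p = 0.143, adjusted p = 1 over 81 genera). OVX+PBS was higher than OVX by an estimate of 0.87 (SE 0.70, edgeR adjusted p = 0.587), with a ratio of mean shares of 1.56. OVX+FMT differed from OVX+PBS, its vehicle group, by -0.12 (SE 0.70, edgeR adjusted p = 0.958). None of these comparisons placed any genus past the threshold: edgeR called 0 of 81 (0%) in each, with 5, 11 and 12 genera at an unadjusted p under 0.05. DESeq2 called 0, 1 and 0 genera in these comparisons and limma 1, 0 and 1, none of them one of the 3 genera described here. Groups without overlap made up 1.23%, 1.23% and 0% of the genera, and Lawsonibacter was not among them. With standard errors of 0.70 to 0.71 on the log2 scale, the fits leave room for differences of either direction or for none.

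A single variant, ASV_20, carried most of the genus. It was seen in all 25 libraries and held 3420 of the 3926 Lawsonibacter counts, 87.1%. Its counts in replicates 1 to 5 were 23, 12, 6, 131 and 12 in Sham and 25, 146, 49, 146 and 116 in OVX. They were 233, 40, 126, 225 and 198 in OVX+GEX and 443, 219, 142, 130 and 104 in OVX+PBS. In OVX+FMT they were 63, 163, 102, 6 and 560. As shares, ASV_20 averaged 0.219% ± 0.216 in Sham, 0.944% ± 0.535 in OVX, 1.70% ± 0.855 in OVX+GEX, 1.66% ± 0.346 in OVX+PBS and 1.15% ± 1.11 in OVX+FMT (SD, n = 5).

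Tested among 379 ASVs, ASV_20 had log2 fold changes against Sham of 2.79 (SE 0.93) in OVX+GEX, 2.69 (SE 0.92) in OVX+PBS and 2.41 (SE 0.91) in OVX+FMT. The edgeR adjusted p-values were 0.149, 0.107 and 0.113, so it was not called. DESeq2's Wald test placed it past the threshold in all 3 comparisons (adjusted p = 0.00976, 0.0112 and 0.0236). Against the other ovariectomized groups its edgeR adjusted p-values were 0.899 for OVX+GEX against OVX, 0.846 for OVX+PBS against OVX and 1 for OVX+FMT against OVX+PBS. No member ASV was called by edgeR in any of the 6 tested comparisons. Over all ASVs the calls numbered 0 of 379 (0%) in each comparison except OVX+FMT against Sham, with 4 (1.06%), none a member. In the 6 comparisons 69 to 97 of the 379 ASVs had an unadjusted edgeR p under 0.05. Of the 8 Lawsonibacter, 3 Flavonifractor and 1 Intestinimonas ASVs tested, 3 to 6 had such a p. The highest number, 6, was in OVX+PBS against OVX, beside 94 of all 379. Some of these member ASVs had counts in only 1 library of a group, set against a group with 0 counts. They include ASV_168 for OVX+PBS against OVX (39 counts in 1 OVX library) and ASV_559 for OVX+GEX against OVX (9 counts in 1 OVX+GEX library). ASV_468 for OVX+FMT against OVX+PBS is another (6 counts in 1 OVX+FMT library). Because 1 library cannot stand for a group, the numbers of members cannot decide whether members differed more often than other ASVs. DESeq2 called 2 to 11 ASVs, and of the members only ASV_20, in the 3 comparisons against Sham given above.

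Without ASV_20, a setting chosen after its counts were seen, the rest of Lawsonibacter showed no call. Its log2 fold changes against Sham were 2.56 in OVX+GEX, 0.17 in OVX+PBS and 1.21 in OVX+FMT (edgeR adjusted p = 0.475, 0.945 and 0.675). The share of those other variants averaged 0.114% ± 0.0803 in Sham, 0.169% ± 0.211 in OVX, 0.401% ± 0.377 in OVX+GEX, 0.0745% ± 0.0369 in OVX+PBS and 0.146% ± 0.0758 in OVX+FMT (SD, n = 5). Within the genus, ASV_20 made up 35.3% to 94.2% of the counts in the Sham libraries and 93.6% to 97.9% in OVX+PBS. In OVX+FMT replicate 4 it made up 30.0% of only 20 counts.

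**Figure D3:**
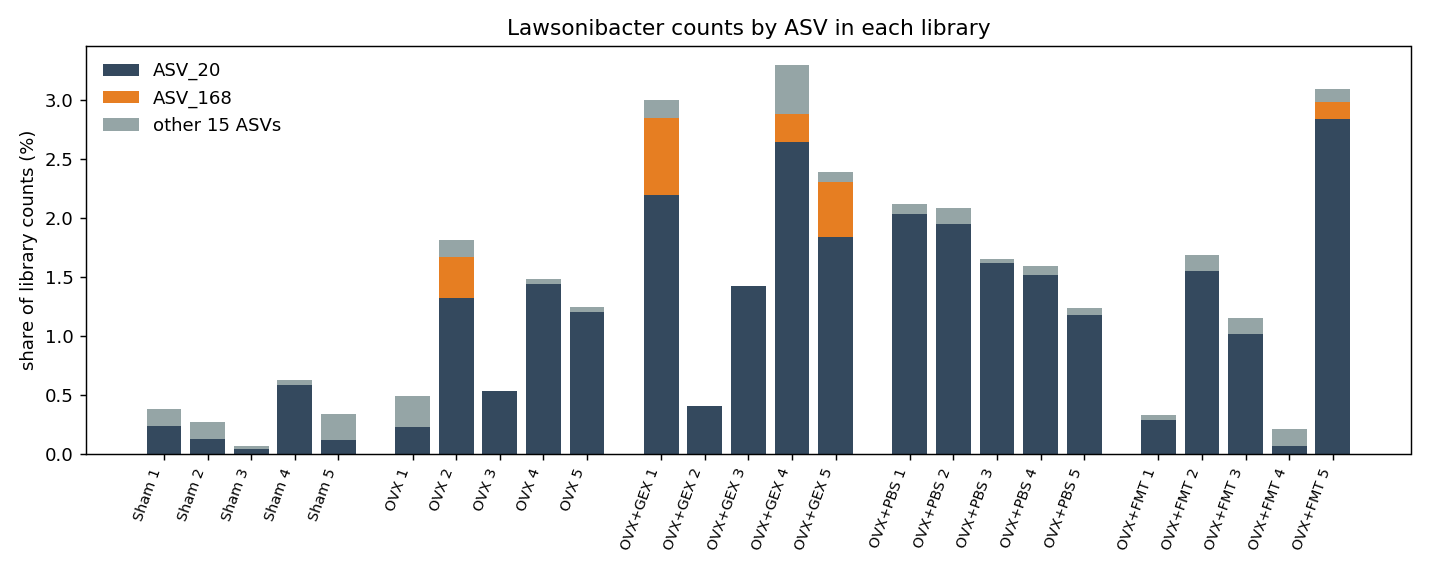
Share of library counts (percent, vertical axis) taken by Lawsonibacter in each of the 25 libraries, stacked into ASV_20, ASV_168 and the other 15 variants; numbers under the bars are replicates. ASV_20 fills most of each tall bar, and ASV_168 appears in 5 libraries only, 3 of them in OVX+GEX.

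The second variant, ASV_168, was found in few libraries. It had 208 counts in 5 libraries: 39 in OVX replicate 2, then 70, 20 and 50 in OVX+GEX replicates 1, 4 and 5, and 29 in OVX+FMT replicate 5. Those 5 libraries include the 4 with the most Lawsonibacter of all, but ASV_168 is itself part of that share, so the match is partly built in. By ASV_20 alone, OVX+GEX replicate 5 (1.84%) lay below OVX+PBS replicates 1 and 2 (2.04% and 1.95%). ASV_168 had 0 counts in every Sham and every OVX+PBS library. Depending on the library, 0 counts allow a share of up to 0.0134% to 0.0308% in Sham and 0.0138% to 0.0351% in OVX+PBS. The edgeR adjusted p for ASV_168 was 0.149 for OVX+GEX against Sham and 0.922 for OVX+GEX against OVX.

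The minor variants differed in where they were seen. ASV_448 had 50 counts in 7 of the 15 Sham, OVX and OVX+GEX libraries and 0 in all 10 OVX+PBS and OVX+FMT libraries. ASV_470 went the other way, with 42 counts in 6 of those 10 libraries and 4 counts in 2 of the other 15. ASV_453 was seen in 3 libraries of each of these sets. This division into sets of 10 and 15 was made after the counts were seen and has no test. Among single comparisons, ASV_448 had an edgeR adjusted p of 0.127 for OVX+PBS against OVX and of 0.143 for OVX+PBS against Sham. For ASV_470 the same comparisons gave edgeR adjusted p-values of 0.541 and 0.416.

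Of the 17 Lawsonibacter ASVs, 8 passed the count filter of the ASV test and 6 were seen in 1 library only; the 9 untested ones held 68 counts in all. The number of Lawsonibacter ASVs per library had overlapping spreads in the 5 groups, at 3.60 ± 1.14 in Sham, 3.00 ± 1.58 in OVX, 3.60 ± 2.79 in OVX+GEX, 3.20 ± 1.10 in OVX+PBS and 3.80 ± 0.837 in OVX+FMT (SD, n = 5). Thinned to the smallest total of 8498 counts, these means became 3.50, 2.98, 3.59, 3.05 and 3.69. Bacterial genomes can carry several unequal 16S copies, so ASVs of 1 species need not be different strains, and whether they were was not tested.

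Flavonifractor, the flavonoid cleaver, was low in every group. Its counts in replicates 1 to 5 were 35, 8, 10, 56 and 11 in Sham and 20, 5, 0, 15 and 14 in OVX. In OVX+GEX they were 18, 4, 0, 12 and 14, in OVX+PBS 17, 0, 12, 17 and 11, and in OVX+FMT 11, 4, 6, 5 and 15. The shares averaged 0.172% ± 0.129 in Sham, 0.103% ± 0.0764 in OVX, 0.0961% ± 0.0723 in OVX+GEX, 0.108% ± 0.0740 in OVX+PBS and 0.0551% ± 0.0141 in OVX+FMT (SD, n = 5). Sham replicates 1 and 4 were the highest libraries, at 0.360% and 0.250% (95% Wilson intervals 0.259% to 0.50% and 0.193% to 0.324%), and all other libraries lay at or under 0.199%. A count of 0 allows a share of up to 0.0326% in OVX replicate 3, 0.0338% in OVX+GEX replicate 3 and 0.0267% in OVX+PBS replicate 2.

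No comparison called Flavonifractor. Against Sham its log2 fold change was -0.12 (SE 1.12) in OVX+GEX, 0.10 (SE 1.12) in OVX+PBS and -0.85 (SE 1.12) in OVX+FMT, with edgeR adjusted p-values of 0.977, 0.965 and 0.855. With plain totals the OVX+PBS estimate was -0.67, so its sign depends on the scaling. As a ratio of mean shares OVX+FMT was at 0.321 of Sham (exact permutation p = 0.0238, adjusted p = 0.175 over 81 genera). In that comparison 22 of the 81 genera had an exact permutation p under 0.05. The estimates were 0.17 (SE 1.12) for OVX+GEX against OVX, 0.39 (SE 1.13) for OVX+PBS against OVX and -0.95 (SE 1.14) for OVX+FMT against OVX+PBS (edgeR adjusted p = 0.979, 0.929 and 0.623). The first of these also turned with plain totals, to -0.10.

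Counts of Flavonifractor were spread over several variants rather than gathered in 1. ASV_246 held 35.3% of them, with 113 counts in 14 libraries, 36 of them in Sham replicate 4. ASV_381 followed with 65 counts in 9 libraries and ASV_468 with 47 counts in 7. ASV_724 and ASV_784, the next by mean share, had 19 and 16 counts. ASV_468 was seen in 6 of the 15 Sham, OVX and OVX+GEX libraries and in 1 of the 10 OVX+PBS and OVX+FMT libraries. The larger variants were spread over both sets, ASV_246 in 8 of 15 and 6 of 10 and ASV_381 in 5 of 15 and 4 of 10. This division was again made after the counts were seen and has no test. Only 3 of the 16 ASVs passed the filter, and their smallest edgeR adjusted p over the 6 comparisons tested, that of ASV_468 for OVX+PBS against Sham, was 0.109.

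Pooled by group, the balance of Lawsonibacter to Flavonifractor was lowest in Sham, whose Lawsonibacter shares were known when the genera were chosen. Over the pooled counts of a group there were 2.06 Lawsonibacter counts for each Flavonifractor count in Sham, 10.6 in OVX, 21.3 in OVX+GEX, 19.0 in OVX+PBS and 24.3 in OVX+FMT. Without OVX+FMT replicate 5, which held 611 of the 998 Lawsonibacter counts of its group, the OVX+FMT ratio was 14.9, below those of OVX+GEX and OVX+PBS. Single libraries crossed the order of the groups. OVX replicate 1 held 55 Lawsonibacter and 20 Flavonifractor counts, a lower ratio than in Sham replicate 2, with 26 and 8. Of the 120 Flavonifractor counts pooled in Sham, 35 came from replicate 1 and 56 from replicate 4. These ratios are a description with no test.

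Intestinimonas, the lysine fermenter, was close to the limit of detection. Its counts in replicates 1 to 5 were 2, 9, 2, 20 and 9 in Sham and 5, 11, 0, 10 and 4 in OVX. They were 0, 0, 0, 0 and 5 in OVX+GEX, 3, 2, 5, 0 and 0 in OVX+PBS and 7, 2, 5, 9 and 5 in OVX+FMT. It was thus seen in all 5 Sham and all 5 OVX+FMT libraries, in 4 of OVX, in 3 of OVX+PBS and in 1 of OVX+GEX. The shares averaged 0.0605% ± 0.0407 in Sham, 0.0568% ± 0.0424 in OVX, 0.0440% ± 0.0307 in OVX+FMT, 0.0177% ± 0.0234 in OVX+PBS and 0.00928% ± 0.0208 in OVX+GEX (SD, n = 5).

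In each of the 4 OVX+GEX libraries without counts, 0 counts allow a share of 0.0282% to 0.0353%, a limit above the values of Sham replicates 1 and 3 and of several OVX+FMT and OVX+PBS libraries. The lower level of Intestinimonas in OVX+GEX was not past any threshold. Its log2 fold change was -1.90 (SE 1.38) against OVX and -1.57 (SE 1.36) against Sham, with edgeR adjusted p-values of 0.719 and 0.771. Without OVX+GEX replicate 5, which leaves the group with no counts, the fits gave -5.83 and -5.50 (edgeR adjusted p = 0.164 and 0.0794), values that depend on the prior count and are no bounds. The exact permutation test gave p = 0.127 and 0.0556, with adjusted p = 1 and 0.281 over 81 genera. OVX+PBS differed by -1.59 (SE 1.33) from OVX and by -1.26 (SE 1.32) from Sham (edgeR adjusted p = 0.587 and 0.581). OVX+FMT differed by 1.35 (SE 1.33) from OVX+PBS and by 0.09 (SE 1.28) from Sham (edgeR adjusted p = 0.589 and 0.944). The last estimate was -0.46 with plain totals. Without OVX+PBS replicate 3 the estimates that involve OVX+PBS were -2.49, -2.16 and 2.25 in the order given (edgeR adjusted p = 0.406, 0.398 and 0.445).

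**Figure D4:**
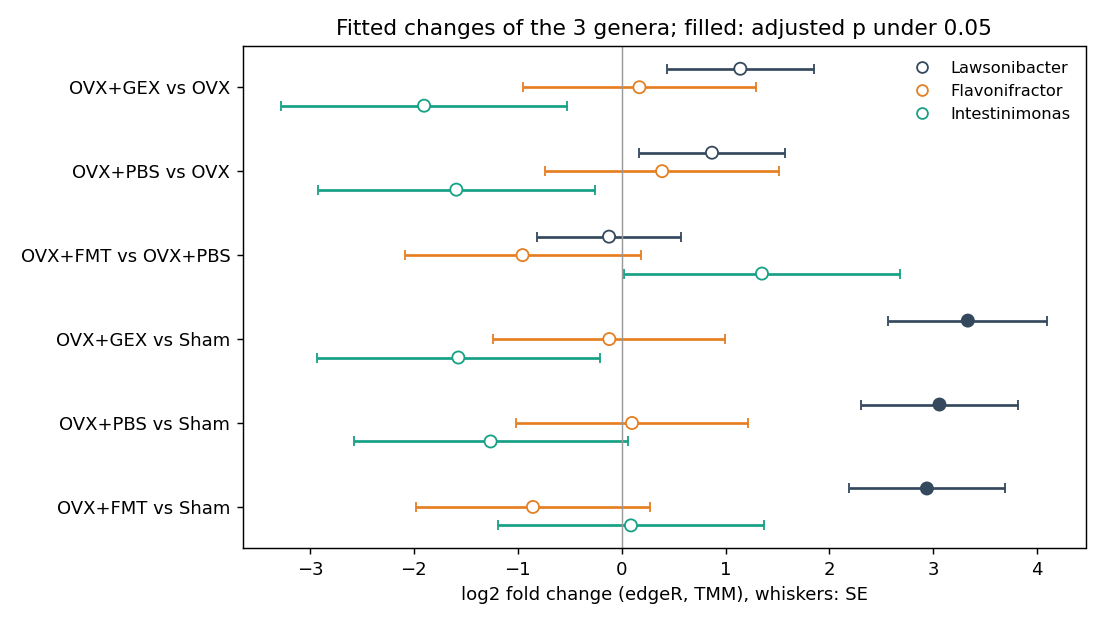
Fitted log2 fold changes (horizontal axis, edgeR with TMM scaling, whiskers SE) of the 3 genera in the 6 comparisons that were tested; filled points have an adjusted p under 0.05. The filled points are those of Lawsonibacter against Sham, at 2.94 to 3.33, and the whiskers of Flavonifractor and Intestinimonas are wider.

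Its variants were as thin. ASV_490 held 42 of the 115 counts, 17 of them in Sham replicate 4, in 5 libraries. ASV_631 held 27 counts in 7 libraries, ASV_735 held 19 in 4, and ASV_1038 and ASV_1058 had 8 and 7. ASV_631, the single ASV of the 10 to pass the filter, had 0 counts in all OVX+GEX and all OVX+PBS libraries and counts in 3 OVX and 3 OVX+FMT libraries. Its edgeR adjusted p-values were 0.202 for OVX+GEX against OVX, 0.127 for OVX+PBS against OVX and 0.178 for OVX+FMT against OVX+PBS.

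The 3 genera were only weakly related across libraries. Spearman's rho of their centred log-ratios over the 25 libraries was 0.29 for Lawsonibacter with Flavonifractor, -0.17 for Lawsonibacter with Intestinimonas and 0.05 for Flavonifractor with Intestinimonas. The genera most like Lawsonibacter among the 80 others tested were Shigella (rho = 0.75), Negativibacillus (0.68) and Bacteroides (0.68). For Flavonifractor they were Bacteroides (0.62), Duncaniella (0.53) and Ruminiclostridium (0.48), and for Intestinimonas Eubacterium (0.42), Eisenbergiella (0.39) and the bracketed genus [Eubacterium] (0.31). The values share libraries and their totals, include the group differences and, for Intestinimonas and Shigella, rest on many counts of 0, so they describe likeness and carry no p.

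Other genera with butyrate-forming members were taken from a list. Of the 19 genera on it 10 were in the table and 9 were tested; edgeR, DESeq2 and limma called 0 of them in each of the 7 comparisons, with 0 to 2 at an unadjusted edgeR p under 0.05. Over all 81 genera edgeR called 4.94% in OVX+GEX against Sham, 1.23% in OVX+PBS and in OVX+FMT against Sham and 0% elsewhere, so 0 of 9 is near the background and is no result about these genera. Against Sham, 2 of the 9 had a higher estimate in OVX+GEX, 4 in OVX+PBS and 4 in OVX+FMT. Their median log2 fold changes were -0.83, -0.47 and -0.40, beside medians of -0.02, -0.48 and 0.13 over all genera, and with plain totals -1.45, -0.96 and -0.67. The largest by mean share were Kineothrix (4.68%), Eubacterium (2.43%), Oscillibacter (0.945%) and Anaerostipes (0.902%). For OVX+FMT against Sham their log2 fold changes were, in this order, -1.40 (SE 0.73), 0.13 (SE 0.56), 1.81 (SE 0.63) and -1.26 (SE 0.86). The edgeR adjusted p-values were 0.276, 0.936, 0.0860 and 0.449. Against Sham the same genera had log2 fold changes of -0.12, -1.16, 0.31 and 0.94 in OVX+GEX. In OVX+PBS they were -1.43, 0.23, 0.85 and 0.57, and the edgeR adjusted p-values of both comparisons ran from 0.238 to 0.977. Of these genera Oscillibacter is a relative of Flavonifractor by family name.

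The relatives by family name were counted in the same way. Of 21 other Oscillospiraceae genera 17 were tested; edgeR, DESeq2 and limma called 0 of them in each comparison, with 0 or 1 at an unadjusted edgeR p under 0.05. Against the same shares over all genera (0% to 4.94%), 0 of 17 is near the background too. In the TMM fit 10, 9 and 13 of them had higher estimates than Sham in OVX+GEX, OVX+PBS and OVX+FMT, with medians of 0.15, 0.02 and 0.52 on the log2 scale. With plain totals these numbers were 5, 4 and 9 and the medians -0.46, -0.42 and 0.15, so the direction of the first pair turned with the scaling. The largest were Ruminococcus (6.26% on average), Acetivibrio (6.06%) and Anaerobacterium (5.09%). The 4 other genera that carried the order name in place of a family were Neglecta, Colidextribacter, Gemmiger and the bracketed genus [Bacteroides]. Of these 3 were tested; edgeR, DESeq2 and limma called 0 in each comparison, with 0 to 2 at an unadjusted edgeR p under 0.05.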

How the data were processed

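Full-length 16S rRNA gene amplicons of 25 fecal libraries were sequenced on a PacBio instrument, per the labels and the design text. The authors deposited 1 table of read counts per ASV, converted from a BIOM file per the file headers. The submitters' processing notes name Subread, without version or role; no source used here names the primers, the denoiser, the filters or the taxonomy database. The deposited counts hold no value of 1 and 464 values of 2. Columns were matched by name, and 5 spelled OVX+GES were taken as the OVX+GEX samples. Totals of 8498 to 22404 counts limit what a count of 0 shows: the floor is 3 counts.

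Counts were summed per genus. Genera, and separately ASVs, that reached 3 counts in 5 or more libraries (81 of 110 genera, 379 of 1555 ASVs) were tested with edgeR 4.0.16 (R 4.3.3): TMM, quasi-likelihood F test, all libraries in 1 fit, group as the only factor, Benjamini-Hochberg adjustment over all tested features within each of 7 comparisons, threshold 0.05. Standard errors came from the F statistic. Scripts were tested on simulated data. Alternatives used limma 3.58.1 (0.5 added to counts), DESeq2 1.42.0 with size factors from positive counts, exact permutation tests of shares, other scalings, filters and subsets.

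Named were the 3 genera, the 5 ASVs of each with the highest mean share, the 3 most alike genera, and up to 4 genera per list; others are marked as named after their values were seen. Members, lists and tests were chosen with earlier results of these data known.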

Additional observations from a re-analysis of the deposited data

Results flagged for a closer look

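The share of Intestinimonas in OVX+GEX replicate 5 was 0.0464%, on 5 counts, while the other 4 libraries of the group were at 0; its gap to them was the whole range of the group. It was the only library standing apart among the 15 combinations of genus and group examined. With 4 libraries at 0, any count in the remaining library would have been marked. The usual rate of about 1 in 20 marked by chance does not hold for such counts. With totals of 8498 to 10771 counts in this group, 0 counts and 5 counts are close to what the depth can separate.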

How the results depend on the processing

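The Lawsonibacter estimate stayed above Sham in OVX+GEX, OVX+PBS and OVX+FMT under every alternative tried, but the calls did not all hold. Without ASV_20 the OVX+PBS estimate was only 0.17. The plain mean share of the other Lawsonibacter variants was lower in OVX+PBS (0.0745%) than in Sham (0.114%). For OVX+GEX the log2 fold change was past the threshold under 10 of 13 alternatives and in 8 of 10 fits with a library left out (3.04 to 3.63); it was lost with plain totals (2.65), with exact permutation of shares (2.66) and without ASV_20 (2.56). For OVX+PBS it held under 8 of 13 and in 4 of 10 (2.80 to 3.29), and was lost with DESeq2 size factors (3.04), plain totals (2.38), permutation (2.38), only libraries under 15000 counts (3.04) and without ASV_20 (0.17). For OVX+FMT it held under 3 of 13 and in 3 of 10 (1.76 to 3.20), and was lost with DESeq2 size factors (2.69), plain totals (1.95), limma (2.34), permutation (1.96), no filter (2.58), a count of at least 10 (2.75), only the groups compared (2.98), the replicate block (2.71, adjusted p = 0.0633 by edgeR), libraries under 15000 counts (1.96) and without ASV_20 (1.21). Under permutation a single genus cannot pass the threshold by itself with so few libraries, so the adjusted values there cannot decide the calls. Before adjustment the exact permutation p was 0.0159 in OVX+GEX and 0.00794 in OVX+PBS, but 0.119 in OVX+FMT. The cause of the losses under the other settings was not tested.

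Of 50 pairs of same-numbered libraries 18 had a correlation of deviations above 0.1, with a mean of 0.04. For OVX+GEX with Sham, OVX and OVX+PBS all pairs were positive (0.048 to 0.188, 0.091 to 0.201 and 0.066 to 0.278), 4 of 5 above 0.1 in each. No pair of groups had all 5 above 0.1, and the numbers were not taken as a pairing. Differently numbered libraries were not set beside them, so these values cannot decide whether the libraries were paired. With the replicate block the calls against Sham were 1 genus in OVX+GEX, 3 in OVX+PBS and 0 in OVX+FMT, and 3 ASVs in OVX+GEX.

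Estimates near 0 turned sign, with the cause not tested. Flavonifractor for OVX+GEX against OVX was -0.055 with TMMwsp, -0.10 with plain totals, -0.10 by permutation and -0.11 without Duncaniella and Ligilactobacillus (-0.16 to 0.50 with a library left out). For OVX+PBS against Sham it was -0.67 with plain totals, -0.0066 by limma, -0.67 by permutation and -0.24 without a filter (-0.20 to 0.59), and for OVX+GEX against Sham -0.45 to 0.37 with a library left out. Intestinimonas for OVX+FMT against Sham was -0.095 with DESeq2 size factors, -0.46 with plain totals, -0.016 by DESeq2, -0.46 by permutation, -0.16 without a filter and -0.034 in libraries under 15000 counts (-0.52 to 0.29). Lawsonibacter without ASV_20 turned to 1.04 for OVX+FMT against OVX+PBS and to -0.94 for OVX+PBS against OVX; with a library left out the former ran from -1.30 to 0.14, and for ASV_20 alone from -1.20 to 0.031.

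Counts of called genera against Sham moved in OVX+GEX from 4 to 2 (TMMwsp, limma, no filter, only the groups compared, without Duncaniella and Ligilactobacillus), 1 (DESeq2 size factors, shallow libraries) or 0 (plain totals, permutation), in OVX+PBS from 1 to 7 (DESeq2), 3 (no filter) or 8 (only the groups compared), and in OVX+FMT from 1 to 5 (TMMwsp), 6 (DESeq2) or 2 (limma). In OVX+PBS and OVX+FMT they were 0 where the Lawsonibacter call was lost by another scaling, permutation or shallow libraries, and in OVX+FMT also without a filter, with a count of at least 10 and with only the groups compared. With a library left out they ran from 0 to 4, 0 to 1 and 0 to 8. Of the comparisons with 0 called genera, DESeq2 gave 1 for OVX against Sham and for OVX+PBS against OVX, limma gave 1 for OVX against Sham, OVX+GEX against OVX and OVX+FMT against OVX+PBS, and no filter gave 1 for the latter pair of comparisons; OVX+FMT against OVX+PBS had 0 to 2 with a library left out. DESeq2 called 2 ASVs for OVX against Sham and for OVX+GEX against OVX, 5 for OVX+PBS against OVX, 6 for OVX+FMT against OVX+PBS and for OVX+GEX against Sham, and 11 for OVX+PBS and OVX+FMT against Sham. ASV_20 was then past the threshold against Sham (log2 fold changes 3.10, 3.27 and 2.85). A count of at least 10 gave 2 ASVs for OVX+PBS against OVX, and leaving out a library 0 to 5 for OVX+FMT against Sham. Of the counts without Duncaniella and Ligilactobacillus, Lawsonibacter was 1.67 percentage points higher in OVX than in Sham.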
